A study of Mus musculus with 24 samples.

Results

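The solute carrier (SLC) genes are the large class of membrane proteins that move amino acids, sugars, ions, metals and metabolites into cells or between compartments. The set described here holds every gene whose symbol begins with Slc and a digit in any of the 6 tables of E4f1 knockout against control that the authors deposited, with Slc2a1 and Slc30a4 left out. It has 41 genes of 3667 named genes in those tables, and 153 probes of the array, of which 73 were listed. By SLC family they comprise 5 carriers of amino acids, 5 of metals, 6 of the mitochondrial carrier family, 8 of organic ions, 5 of the sugar and nucleotide sugar families, 6 of inorganic ions and 6 of other substrates. Family does not settle what every member carries, and for Slc10a3, Slc25a43 and Slc35f1 the substrate is not given here.

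Some SLC proteins couple their substrate to a gradient of sodium, protons or another solute by cotransport or exchange, and others let it run down its own gradient. Members of the SLC25 family mostly sit in the inner mitochondrial membrane and pass nucleotides, cofactors and intermediates between matrix and cytosol, while members of the SLC35 family feed the endoplasmic reticulum and Golgi with nucleotides and activated sugars and sulfate. In fibroblasts they set which nutrients are taken up for growth and for making matrix. E4F1 is a zinc finger transcription factor that is known to bind sites of the ATF/CRE kind.

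The cells were mouse embryonic fibroblasts (MEFs) of a mixed C57BL/6 and 129Sv/J strain, grown from embryos of 13.5 days. All lacked p53, so that neither background holds a p53 response. Controls were E4F1 +/- (E4F1+/flox cells given CRE) and knockouts E4F1 -/- (E4F1-/flox cells given CRE), so that the controls also carried 1 lost allele and met the same recombinase, although the design text calls them wild-type. RNA was taken 3 days after infection with a retrovirus that carries CRE and then excises itself. The same comparison was made in p53-/- MEFs and in p53-/- MEFs transformed by a retrovirus carrying the Ha-RasV12 oncogene. Each of these 4 groups had 3 biological replicates (A, B and C), and each array held the knockout and the control of 1 replicate in 2 dyes, with the dyes exchanged on a second array. This gave 24 samples on 12 arrays. All values below are log2 signals or differences of log2 signals, with the 2 dye orientations averaged, and a difference of 1 is a doubling of signal. Probes of different genes are not compared in level.

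E4f1 checked the labels. Of its 6 probes, the probe with the smallest p in the authors' deposited limma tables was read. The others in those tables were at -1.38 and -0.65 in p53-/- MEFs and from -2.24 to -0.91 in Ha-RasV12 MEFs. On the probe read, the knockout minus control difference in p53-/- MEFs was -1.38 in A, -0.92 in B and -1.53 in C. In Ha-RasV12 MEFs it was -1.96, -2.15 and -1.87. All 6 differences were below 0, and the mean of -1.28 (SE 0.16) had a limma adjusted p of 0.0759 in p53-/- MEFs, while that of -1.99 (SE 0.16) had 0.00044 in Ha-RasV12 MEFs. Of the fibroblast markers Col1a1, Col3a1, Pdgfra and Fn1, 4 of the 4 that could be named had a probe above background in all 24 samples, as did the 1 named neural marker (Nes) and the 1 named adipocyte marker (Fabp4), while the named macrophage, epithelial and muscle markers, 1 each, did not. A marker could be named only where a table listed it. In the authors' deposited limma table for Ha-RasV12 MEFs Fn1 (1.67), Pdgfra (1.13), Col1a1 (0.83) and the epithelial Epcam (0.86) were higher in the knockout, and Col3a1 (-1.99), the adipocyte Fabp4 (-1.00) and the blood cell Cd53 (-0.74) lower, and in that for p53-/- MEFs Fn1 (-0.73) and the muscle Des (-1.03) were lower. The authors' deposited SAM 5% list for p53-/- MEFs also held Pdgfra (0.94) and Nes (-0.57). Their part in the values below was not tested. Between 40.3% and 46.9% of probes were above background (the 95th percentile of the random control probes) in a sample.

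The Ha-RasV12 samples were less alike than the p53-/- samples. Over the brighter 66244 probes, the SD of the difference between 2 controls was 0.32 to 0.46 in p53-/- MEFs. In Ha-RasV12 MEFs it was 0.27 between controls B and C, but 0.91 and 0.93 between control A and those. Ha-RasV12 control A was no nearer to its own knockout (0.83) than to knockout B (0.76). The 2 dye orientations of each sample gave an expected SD for repeats of the same RNA, which was 0.262 for Ha-RasV12 controls B and C, beside the 0.271 measured. For p53-/- controls B and C it was 0.320, with 0.324 measured, and for p53-/- knockouts B and C 0.326, with 0.310 measured. For Ha-RasV12 knockouts B and C it was 0.265, with 0.689 measured. The expected SD also holds any dye bias of single probes, which averaging over both dyes cancels, so that it can be too high. A measured SD near it therefore cannot tell whether 2 replicates are the same RNA. The design text calls the replicates independent. Whether Ha-RasV12 control A comes from the line that its label names was not tested, and each Ha-RasV12 difference of replicate A rests on it. Results are given with their value in each replicate and, for counts, with B and C counted as 1 sample, and p-values measure only the spread between these samples.

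A promoter is shown for Slc38a6, since it was the only member with a searched E4F1-type motif and is also listed lower in both backgrounds. The 2 motifs were TGACGTAA and TGACGTCA, read on both strands from 250 bases before to 50 bases after the start in the RefSeq promoters of GRCm38.p6. Of the 41 members 30 had a promoter in that set and 1 (3.33%) held a motif, against 2.59% of 27025 genes. Slc38a6 lies on chromosome 12, plus strand, chr12:73286598-73286897, and the palindrome TGACGTCA in capitals begins 121 bases before the start.
Slc38a6: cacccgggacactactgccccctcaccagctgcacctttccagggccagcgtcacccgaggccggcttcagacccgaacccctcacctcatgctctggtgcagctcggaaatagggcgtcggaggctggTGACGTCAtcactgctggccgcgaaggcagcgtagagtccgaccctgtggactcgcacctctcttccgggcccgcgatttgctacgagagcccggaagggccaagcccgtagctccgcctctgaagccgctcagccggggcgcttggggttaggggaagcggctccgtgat
A match describes letters only. Binding of E4F1 was not measured in these samples.

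Most members entered the set through the Ha-RasV12 cells: 37 were listed there, 6 in p53-/- MEFs and 2, Slc38a6 and Slc25a43, in both. The authors' deposited limma table held 1 member for p53-/- MEFs, lower in the knockout, where 0.675% of all transcripts had a listed probe, and 16 for Ha-RasV12 MEFs, 7 higher and 9 lower, where 5.79% had one. The authors' deposited lists from significance analysis of microarrays (SAM) come at 1% and 5%. The 1% list held 1 member for p53-/- MEFs, against 0.684% of transcripts, and 18 for Ha-RasV12 MEFs, 10 higher and 8 lower, against 5.39%. The 5% list held 6 members (1 higher, 5 lower) against 1.35%, and 37 members (19 higher, 18 lower) against 10.7%. Being listed is how members were chosen, so that these counts and the knockout values that follow are descriptions and show nothing about SLC genes as a class. No member had listed probes that went both ways. Among the Ha-RasV12 tables, 18 members were in the 5% list alone, and 1 of these, Slc25a43, was also in the p53-/- 5% list.

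When the 2 arrays of a replicate were averaged and the 3 replicates were fitted with limma, 9 members passed the threshold of an adjusted p of 0.05 in Ha-RasV12 MEFs, 6 higher and 3 lower, where 2.31% of all probes did, and 1.84% of genes read as means over probes. In p53-/- MEFs 0 members passed with limma (0.0211% of probes and 0.00932% of means did), and 1 had an unadjusted p below 0.05. In Ha-RasV12 MEFs 33 of 41 members had the same sign in all 3 replicates, against 29.6% of probes and 29.0% of means, and in p53-/- MEFs 17 of 41, against 31.3% and 32.6%. The median difference over members was 0.22 in Ha-RasV12 MEFs, with 21 above 0 and 20 below, and -0.04 in p53-/- MEFs, with 14 above and 27 below, beside medians over all probes of -0.01 and 0.00. The 9 calls rested on the pairing and on all 3 replicates: with limma 0 passed without the replicate block, 2 without replicate A (among them Slc35f2), 2 without B (Slc25a33 and Slc35f1, which was not among the 9) and 0 without C or with B and C counted as 1 sample. With means over probes 3 passed, among them Slc44a2 and Slc35b3. The fit shares 1 estimate of the spread between the backgrounds, so that the p53-/- p-values carry the wider Ha-RasV12 spread and the Ha-RasV12 p-values the narrower one. When each background was fitted alone with limma, 0 members passed in p53-/- MEFs, where 0.138% of probes did, and 0 in Ha-RasV12 MEFs, where 0.211% did, the adjusted p of the 9 lying between 0.254 and 0.336. Of the members' other probes, which no table of the same background listed, 72 of 73 in Ha-RasV12 MEFs and 14 of 14 in p53-/- MEFs had the sign of the listed probe in the same samples. Their median size per gene was smaller than that of the listed probes for all 34 and all 6 genes that had such probes. Single unlisted probes could be larger, such as a probe of Slc27a1 in Ha-RasV12 MEFs (-1.01 against -0.88). The median over genes was 0.37 against 0.71 for listed probes in Ha-RasV12 MEFs, and 0.34 against 0.60 in p53-/- MEFs. A larger difference is more readily listed, so that this gap in size follows in part from the listing itself.

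**Figure D1:**
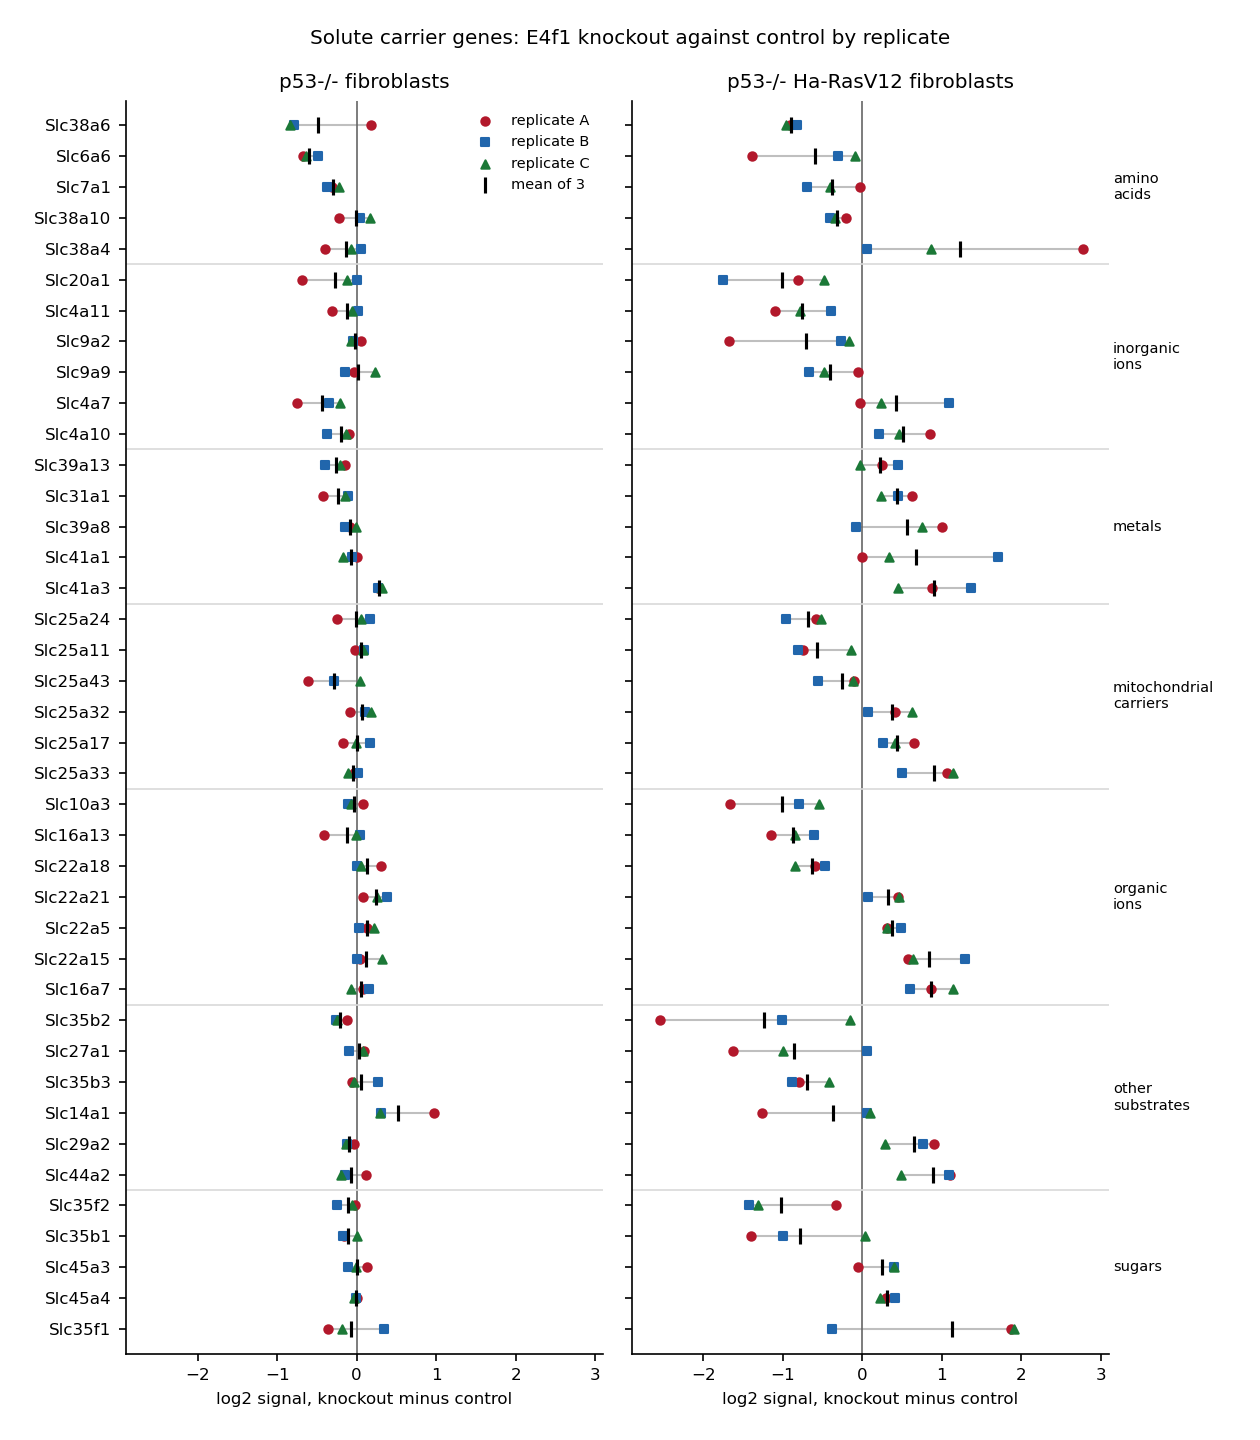
Knockout minus control log2 signal (x axis) of 40 of the 41 solute carrier genes (rows, grouped by SLC family) in p53-/- fibroblasts (left) and Ha-RasV12 fibroblasts (right), with a point for each of 3 replicates, a grey line over their range and a black bar at the mean. In Ha-RasV12 cells 20 of the means drawn lie above 0 and 20 below, and the replicate farthest from 0 is A for 16 members (among them Slc38a4, Slc35b2 and Slc9a2), B for 17 and C for 7.

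Carriers of amino acids mostly had lower signal in knockout cells, with 0 calls in either background. Means were below 0 for 5 of 5 in p53-/- MEFs, where Slc38a10 was at -0.0037, and for 4 of 5 in Ha-RasV12 MEFs. Of all 41 members 27 were below 0 in p53-/- MEFs and 20 in Ha-RasV12 MEFs. Slc38a6, a member of the sodium-coupled neutral amino acid transporter family, is the member whose promoter is shown above. Its leading probe differed by -0.91 in replicate A, -0.83 in B and -0.96 in C in Ha-RasV12 MEFs, a mean of -0.90 (SE 0.20, 1.86-fold lower), with a limma adjusted p of 0.0513. All 3 knockouts (6.91, 6.79 and 7.17) lay below all 3 controls (7.84, 7.58 and 8.10). The authors' deposited limma table listed 4 of its 6 probes, from -0.90 to -0.74. Replicates B and C of the p53-/- MEFs also lay below 0 and A did not: the mean over probes was 0.18 in A, -0.79 in B and -0.84 in C, and without A it was -0.81. The probe in the authors' SAM 5% list followed the same split, at -0.03, -1.41 and -0.99.

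**Figure D2:**
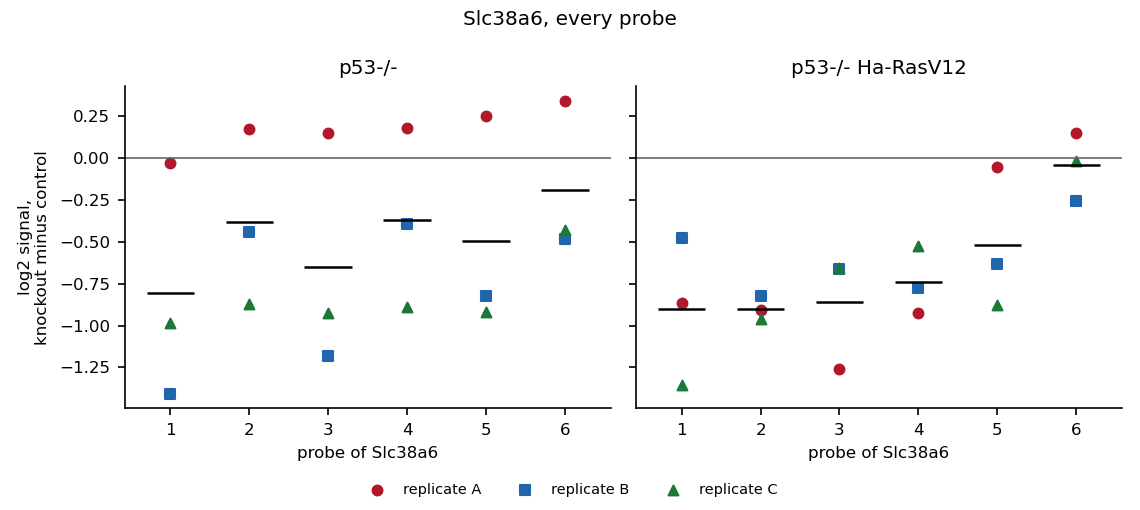
Knockout minus control log2 signal (y axis) of the 6 probes of Slc38a6 (x axis, ordered by their Ha-RasV12 mean) in each replicate, with the mean of 3 as a bar. In p53-/- fibroblasts replicate A lies between -0.03 and 0.34 for every probe, above B and C, whereas in Ha-RasV12 fibroblasts replicate A lies among or below the others for 4 of the 6 probes.

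Slc6a6, which takes up taurine, was the member in the p53-/- limma table. Its leading probe differed by -0.67, -0.48 and -0.63 there, a mean of -0.59 (SE 0.31, limma adjusted p = 1.00, and 0.251 in a fit of p53-/- MEFs alone), and the knockouts (9.78, 10.22 and 9.94) lay below the controls (10.47, 10.69 and 10.57). In the authors' deposited limma table the same mean had an adjusted p of 0.0416. In Ha-RasV12 MEFs, where no table listed it, the mean over its probes was -1.39 in A, -0.31 in B and -0.09 in C. Control A was at 11.81 on the leading probe, against 9.39 and 9.40 in controls B and C. Slc7a1, the importer of arginine and other cationic amino acids, differed by -0.31, -0.37 and -0.23 in p53-/- MEFs and by -0.04, -0.69 and -0.41 in Ha-RasV12 MEFs. Slc38a10 was lower in all 3 Ha-RasV12 replicates (-0.21, -0.40 and -0.35) and at -0.22, 0.05 and 0.17 in p53-/- MEFs, with a probe above background in 3 of 6 samples of each Ha-RasV12 group.

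Slc38a4, an amino acid transporter that is imprinted in the mouse, was the exception, and its Ha-RasV12 difference came mainly from 1 control. The mean over its probes was 2.77 in A, 0.06 in B and 0.87 in C (mean 1.23, SE 0.44, limma adjusted p = 0.253), and 0.46 without A. On the leading probe control A was at 8.00 and controls B and C at 10.96 and 10.99. The 3 Ha-RasV12 knockouts, at 11.38, 11.45 and 11.89, and the 6 p53-/- samples, at 11.94 to 12.91, were all higher. Slc38a4 is on chromosome 15, where 81.2% of the other named genes in the authors' deposited Ha-RasV12 limma table were higher in the knockout, and where the 4 listed members, which also include Slc25a17, Slc25a32 and Slc45a4, were all higher. On all chromosomes where over 60% of those genes were higher, 7 listed members were higher and 8 lower, against 12 and 10 elsewhere. The part of the chromosome in these values was not tested.

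**Figure D3:**
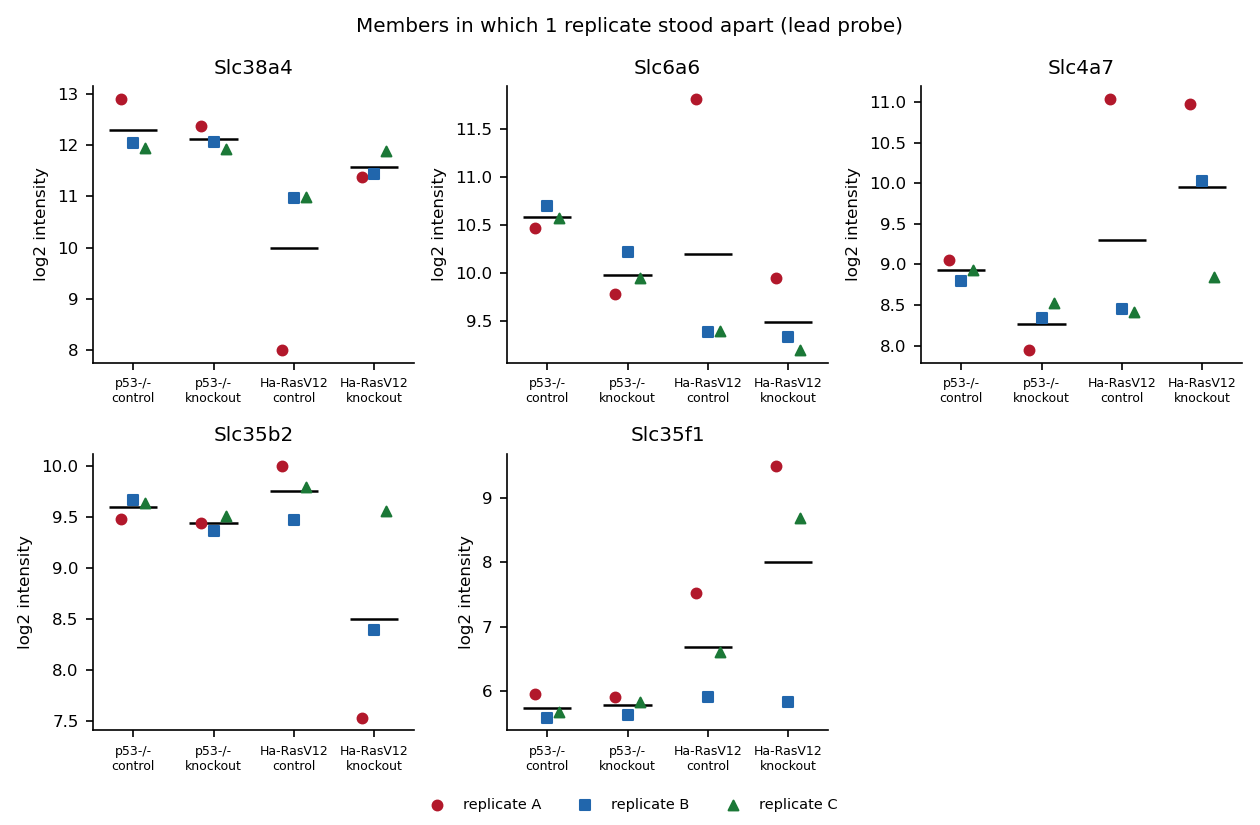
Quantile normalized log2 intensity (y axis) of the leading probe of 5 members, chosen after their values were seen, in each group and replicate, with the group mean as a bar. Ha-RasV12 control A stands apart from controls B and C in Slc38a4 (8.00 against 10.96 and 10.99), Slc6a6 and Slc4a7, whereas among the Ha-RasV12 knockouts of Slc35b2 A is lowest (7.53). Among those of Slc35f1 B is lowest (5.83).

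Of the carriers of metals 5 of 5 had means above 0 in Ha-RasV12 MEFs, with 1 call, and 1 of 5 in p53-/- MEFs. The median was 0.56 in the first and -0.08 in the second. Slc41a3, of the SLC41 magnesium transporter family, passed the threshold: its leading probe differed by 0.88, 1.36 and 0.45, a mean of 0.90 (SE 0.19, 1.86-fold, limma adjusted p = 0.0424). The Ha-RasV12 knockouts (8.05 to 8.97) and controls (7.66 to 8.10) overlapped between knockout C and control A. It was also the metal carrier above 0 in p53-/- MEFs, at 0.27, 0.27 and 0.32 over its probes, and on the leading probe all 3 knockouts there (8.44 to 8.61) were above all 3 controls (8.07 to 8.28). For Slc41a1, a magnesium transporter, the mean of 0.68 came mainly from B (0.00, 1.70 and 0.34) and was 0.17 without it. The copper importer Slc31a1 gave 0.63, 0.44 and 0.23 in Ha-RasV12 MEFs, and the opposite sign, -0.42, -0.11 and -0.15, in p53-/- MEFs. Slc39a8, an importer of zinc and manganese, was near 0 in B (1.00, -0.08 and 0.75). Slc39a13, which moves zinc out of intracellular vesicles, was listed in p53-/- MEFs (-0.15, -0.40 and -0.21) and not in Ha-RasV12 MEFs (0.25, 0.45 and -0.03).

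Genes that work beside these carriers were read from a separate list of 14 genes, of which 4 could be named on the array. In the authors' deposited SAM 5% list for Ha-RasV12 MEFs, which holds 10.7% of transcripts, 0 were higher and 4 lower: the transferrin receptor Tfrc (-1.59), the metal-binding metallothioneins Mt1 (-1.82) and Mt2 (-2.26), and the sodium pump subunit Atp1b1 (-1.03). In the p53-/- list Atp1b1 was higher (0.45) and no other was listed. This list, too, names a gene only where a table lists it.

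Members of the mitochondrial carrier family split evenly in Ha-RasV12 MEFs, 3 above 0 and 3 below, with 1 call. Slc25a33, which imports pyrimidine nucleotides into mitochondria, differed by 1.07, 0.50 and 1.15, a mean of 0.90 (SE 0.17, 1.87-fold, limma adjusted p = 0.0266), and by -0.03, 0.02 and -0.11 in p53-/- MEFs. Its Ha-RasV12 knockouts ran from 9.93 to 11.01 and its controls from 9.40 to 9.93, with knockout B level with control A. Slc25a24, the ATP-Mg/phosphate carrier, was lower in all 3 replicates (-0.58, -0.96 and -0.51, limma adjusted p = 0.0678), and its knockouts (12.10 to 12.33) lay below its controls (12.76 to 13.02). The oxoglutarate carrier Slc25a11 differed by -0.75, -0.81 and -0.15. Slc25a17, which works in peroxisomes rather than mitochondria, gave 0.65, 0.27 and 0.41, and Slc25a32, which carries folate and flavin nucleotide, 0.41, 0.07 and 0.62. Slc25a43, the other member listed in both backgrounds, was low in signal: it was above background in 4 of 6 controls and 0 of 6 knockouts in p53-/- MEFs, and in 6 of 6 and 4 of 6 in Ha-RasV12 MEFs, so that no fold is given for p53-/- cells. Its single listed probe was at -0.56 in the authors' deposited p53-/- SAM list and at -0.55 in the Ha-RasV12 list.

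Carriers of organic ions held 5 of the 9 Ha-RasV12 calls, 3 higher and 2 lower, while in p53-/- MEFs 6 of 8 means were above 0, the highest at 0.24. Slc16a7, the monocarboxylate transporter MCT2, differed by 0.86, 0.60 and 1.14 (mean 0.87, SE 0.17, limma adjusted p = 0.0301), and was above background in 3 of 6 controls and 5 of 6 knockouts. Slc22a15 differed on its leading probe by 0.58, 1.29 and 0.64 (mean 0.84, SE 0.17, limma adjusted p = 0.0422) and by 0.49 over its 3 probes, with every knockout (8.35 to 9.03) above every control (7.77 to 7.93).

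The 2 called lower were Slc10a3 and Slc16a13. Slc10a3, an orphan of the bile acid transporter family, differed on 1 of its 3 probes by -1.67, -0.80 and -0.54 (mean -1.00, SE 0.21, limma adjusted p = 0.0456), with knockouts at 7.14 to 7.87 and controls at 8.42 to 8.84. Its other probes, also above background in all 24 samples, were at -0.18 and -0.16, and the mean over the 3 was -0.45 (limma adjusted p = 0.357). Slc16a13, a monocarboxylate transporter (MCT13), differed by -1.14, -0.61 and -0.85 (mean -0.87, SE 0.16, limma adjusted p = 0.0257), with knockouts at 6.52 to 6.74 and controls at 7.34 to 7.69. On these leading probes neither pair of groups overlapped. The Slc16a13 probe was above background in 6 of 6 Ha-RasV12 controls and 4 of 6 knockouts. The other probes of Slc16a13 were at -0.82 and -0.21, and the mean over the 3 was -0.63. The carnitine transporters Slc22a5 (0.31, 0.49 and 0.31) and Slc22a21 (0.45, 0.08 and 0.46) were above 0 in all 3 Ha-RasV12 replicates and did not pass. Slc22a21 was above background in 2 of 6 controls and 5 of 6 knockouts there. Slc22a18, an imprinted member of the organic cation family on chromosome 7, was listed lower in Ha-RasV12 knockouts (limma adjusted p = 0.0808). It was above background in 5 of 6 control and 0 of 6 knockout samples, so that it was at least 1.17-fold lower in knockouts. On chromosome 7 it went against 90.8% of the other named genes of the authors' deposited Ha-RasV12 limma table, which were higher.

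Among the sugar families the called member was Slc35f2, an orphan of the nucleotide sugar transporter family. On the leading probe its Ha-RasV12 differences were -0.33, -1.43 and -1.31, a mean of -1.02 (SE 0.22, 2.03-fold lower, limma adjusted p = 0.0449). That probe was above background in 5 of 6 Ha-RasV12 controls and 4 of 6 knockouts. The mean over all 6 probes of Slc35f2 was -0.70. Controls B and C (8.24 and 8.15) stood above control A (6.55) and the knockouts (6.20 to 6.87), and in p53-/- MEFs its leading probe was above background in 0 of 12 samples. Slc35b1, an ATP importer of the endoplasmic reticulum in human cells, differed by -1.40 in A, -1.00 in B and 0.03 in C. Slc35f1, of the same SLC35 family, was 1.86 in A, -0.38 in B and 1.90 in C, and 1.88 without B, where limma gave an adjusted p of 0.0149. Knockouts A and C were at 9.50 and 8.69 and knockout B at 5.83. Slc35f1 was above background in 3 of 6 Ha-RasV12 controls and 4 of 6 knockouts. Slc45a3 (-0.05, 0.40 and 0.40) and Slc45a4 (0.30, 0.41 and 0.22) were higher by less.

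Carriers of inorganic ions were mostly lower in Ha-RasV12 MEFs, 4 of 6, with 0 calls. The phosphate importer Slc20a1 differed by -0.81, -1.75 and -0.48 (limma adjusted p = 0.0747) and Slc4a11, of the bicarbonate transporter family, by -1.09, -0.39 and -0.78 (limma adjusted p = 0.0737). The knockouts of Slc4a11 (7.39 to 7.86) lay below its controls (8.15 to 8.96). For the sodium/proton exchanger Slc9a2 the listed difference came mainly from A, and on the leading probe control A was at 8.46 and all other samples at or below 6.18. It was above background in 3 of 6 controls and 0 of 6 knockouts, which allows only a fold of at least 1.02. The endosomal exchanger Slc9a9 was above background in 3 of 6 controls and 0 of 6 knockouts, and no fold is given. Slc4a10, another bicarbonate transporter, was above background in 0 of 6 controls and 4 of 6 knockouts, and no fold is given. The sodium bicarbonate cotransporter Slc4a7, listed in p53-/- MEFs (-0.75, -0.35 and -0.21), had the other sign in Ha-RasV12 MEFs (-0.03, 1.09 and 0.23). There control A and knockout A were equally high, at 11.04 and 10.98, against 8.41 to 10.03 in B and C.

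The remaining carriers include 1 call, Slc44a2, of the choline transporter-like family, which was higher in Ha-RasV12 knockouts by 1.10, 1.09 and 0.49 (mean 0.89, SE 0.18, 1.86-fold, limma adjusted p = 0.0385). Its knockouts (9.42 to 10.16) lay above its controls (8.96 to 9.09), and the authors' deposited limma table listed 4 of its probes. The carriers of the sulfate donor PAPS into the Golgi did not pass: Slc35b3 differed by -0.80, -0.89 and -0.42 on its leading probe (limma adjusted p = 0.0607, and 0.0436 with means over probes) and Slc35b2 by -2.54, -1.01 and -0.16 (limma adjusted p = 0.180), a mean of -1.24 that became -0.58 without A. The fatty acid transporter Slc27a1 differed by -1.62, 0.06 and -1.00. The nucleoside transporter Slc29a2 stood just inside the authors' deposited Ha-RasV12 limma table (0.65, adjusted p = 0.0488). Among members outside that table, Slc25a32 (0.55) had the smallest p in the authors' Ha-RasV12 SAM lists. That probe of Slc29a2 was above background in 0 of 6 controls and 3 of 6 knockouts, while another of its probes was above background in all Ha-RasV12 samples. The mean over its 3 probes was 0.48 (limma adjusted p = 0.187). The urea transporter Slc14a1 was listed higher in p53-/- MEFs (0.98, 0.31 and 0.29), and in Ha-RasV12 MEFs was below 0 in A alone (-1.26, 0.06 and 0.10).

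The members listed in 1 background were also read in the other. Of the 19 members listed higher in Ha-RasV12 MEFs alone, 8 were above 0 and 11 below in p53-/- MEFs, with a median of -0.01 over means of their probes. Of the 16 listed lower there alone, 5 were above 0 and 11 below, with a median of -0.03. The median over all such means was 0.00. The widest p53-/- difference among these 35 was 0.28 above 0 (Slc41a3) and -0.30 below (Slc7a1). The 2 sets of values share no sample and no array. They do differ in spread: the median SD between replicate differences over the leading probes was 0.21 in p53-/- MEFs and 0.36 in Ha-RasV12 MEFs, beside 0.25 and 0.26 between dye orientations.

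**Figure D4:**
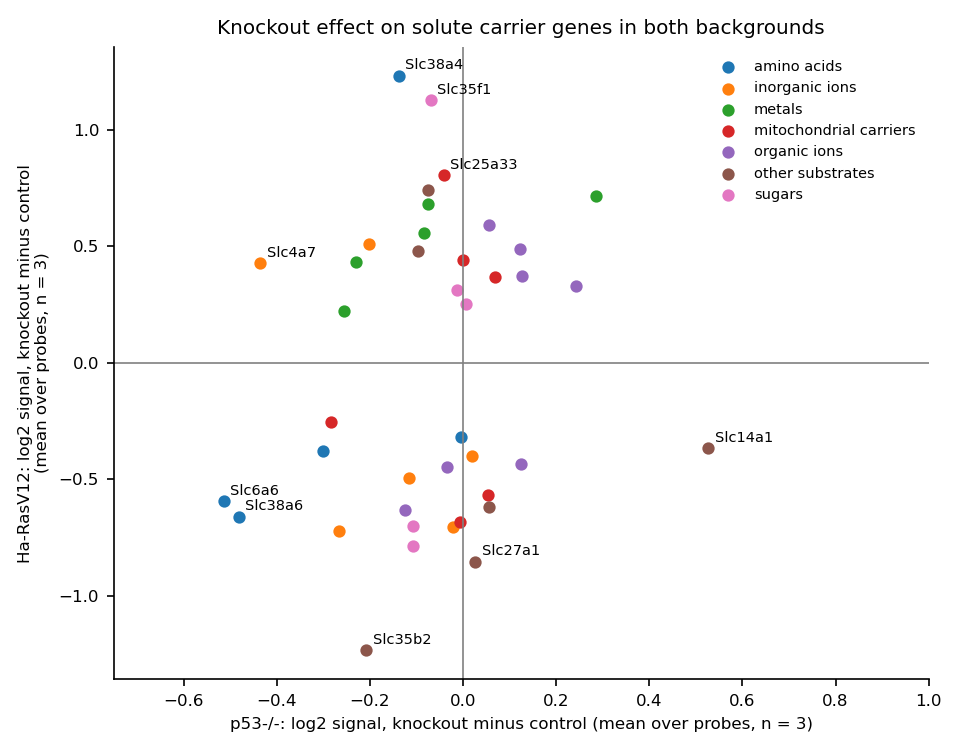
Mean knockout minus control log2 signal over all probes of 40 of the 41 members in p53-/- fibroblasts (x axis) and Ha-RasV12 fibroblasts (y axis), 3 replicates each, coloured by family, with the widest members named. Values spread from -1.24 (Slc35b2) to 1.23 (Slc38a4) on the y axis, and the members above 0 and below 0 on that axis both straddle 0 on the x axis.

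The level of each member in Ha-RasV12 against p53-/- MEFs, averaged over knockout and control, was not itself used in choosing the set. However, 35 of the 41 were listed for Ha-RasV12 MEFs alone, and a gene with little signal there is less readily listed. Higher levels in Ha-RasV12 MEFs are thus partly tied to the choice, and the calls below are descriptions. Of 41 members 6 passed with limma, 4 higher and 2 lower in Ha-RasV12 MEFs, where 4.84% of all probes did (2.32% higher, 2.52% lower), as did 8.23% of means over probes and 11.8% of the brighter probes fitted alone. In 17 the 3 replicates of the backgrounds did not overlap, 9 higher and 8 lower, against 24.0% of probes (12.7% higher, 11.3% lower). Each array held 1 background, so that background and array set cannot be told apart. Median intensity differed between samples in the values as deposited, from 69.2 to 100.0. The median difference over all probes was -0.14 in those values and 0.01 after quantile normalization, and values are given after the latter.

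Slc14a1 differed most. In p53-/- MEFs its levels were 7.58, 6.22 and 6.12 in controls and 8.53, 6.68 and 6.50 in knockouts, and in Ha-RasV12 MEFs 12.03, 9.74 and 9.78 in controls and 10.74, 10.25 and 10.04 in knockouts. Every Ha-RasV12 sample was above every p53-/- sample. The difference was 3.49 (SE 0.52, 11.2-fold, limma adjusted p = 0.00766), with the probe above background in 5 of 12 p53-/- and 12 of 12 Ha-RasV12 samples. Slc4a11 was next among the higher ones that passed: 6.42 to 6.86 over the p53-/- samples and 7.39 to 8.96 over the Ha-RasV12 samples, with no overlap, a difference of 1.46 (SE 0.19, 2.76-fold, limma adjusted p = 0.00428). It was above background in 5 of 12 and 12 of 12 samples. Slc27a1 was higher by 0.84 (SE 0.19, limma adjusted p = 0.0447), although Ha-RasV12 knockouts A (6.39) and C (6.70) lay within the range of the p53-/- samples (6.21 to 6.91). Slc25a24 was higher by 0.59 (SE 0.14, limma adjusted p = 0.0496), at 11.77 to 12.11 in p53-/- samples and 12.10 to 13.02 in Ha-RasV12 samples, the lowest being knockout B.

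The 2 lower ones were Slc9a9 and Slc35b1. Slc9a9 ran from 7.01 to 7.69 in p53-/- samples and from 5.44 to 6.57 in Ha-RasV12 samples, a difference of -1.34 (SE 0.22, limma adjusted p = 0.0113), and was above background in 12 of 12 and 2 of 12. Over the controls alone it did not pass (-1.01, limma adjusted p = 0.102). Slc35b1 ran from 12.38 to 12.68 and from 10.79 to 12.22, a difference of -0.96 (SE 0.18, limma adjusted p = 0.0217), and did not pass over the controls alone either (-0.55, limma adjusted p = 0.223). With limma, 6 members passed without replicate A, among them 4 of these 6, but 0 without B, 1 (Slc4a11) without C and 0 with B and C counted as 1 sample. Slc38a4, at -1.44 (SE 0.42, limma adjusted p = 0.102), did not pass. Neither did Slc35f1 (limma adjusted p = 0.161) and Slc35f2 (limma adjusted p = 0.0644). Their leading probes were above background in 0 of 12 p53-/- samples, and in 7 of 12 and 9 of 12 Ha-RasV12 samples. The Ha-RasV12 means were at least 1.41-fold and at least 1.24-fold higher. For Slc35f1 that mean rested on A and C. Its Ha-RasV12 control B (5.91) and knockout B (5.83) lay within the range of the p53-/- samples (5.58 to 5.94).

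**Figure D5:**
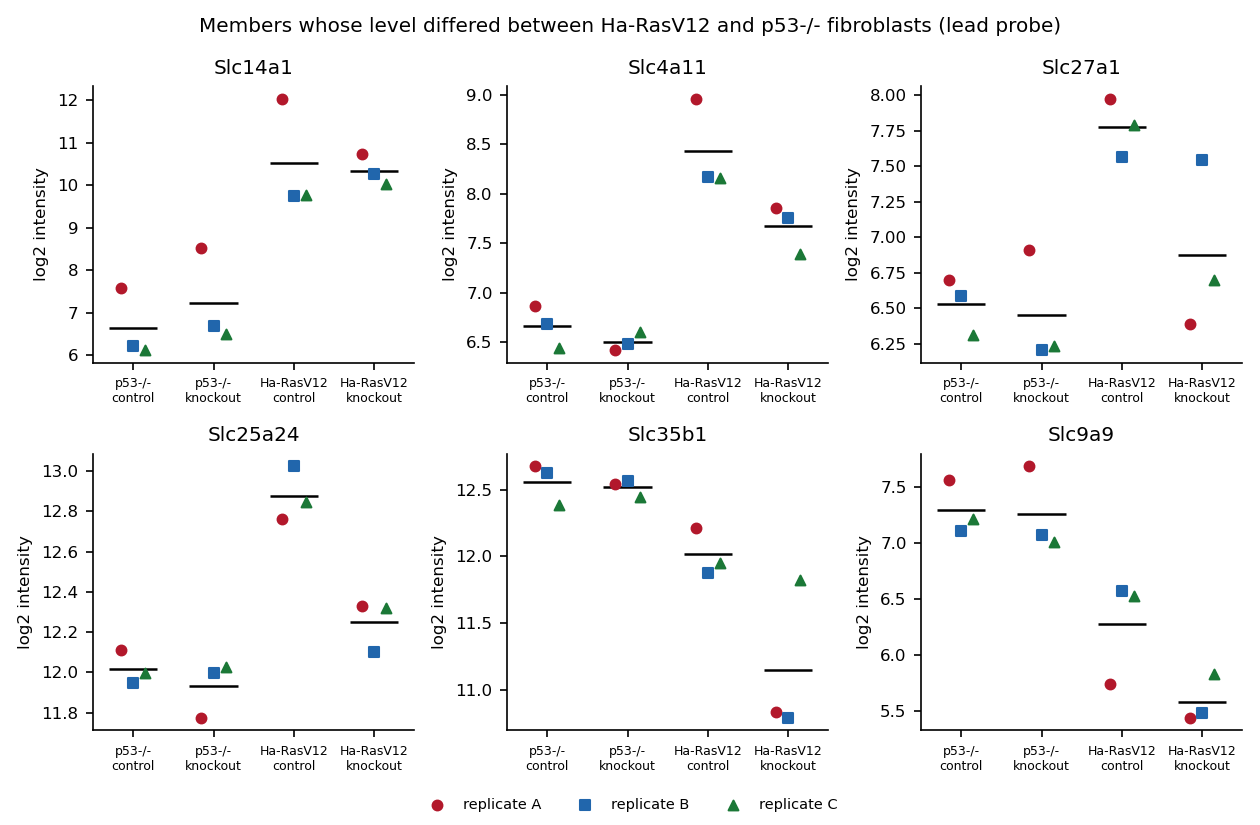
Quantile normalized log2 intensity (y axis) of the leading probe of the 6 members that passed the level test, in each group and replicate, with the group mean as a bar. Slc14a1, Slc4a11, Slc35b1 and Slc9a9 separate the p53-/- from the Ha-RasV12 samples without overlap, Slc27a1 overlaps in Ha-RasV12 knockouts A and C, and Slc25a24 in knockout B.

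Transporters of the SLC class that carry other symbols were read in the same way from a list of 21, of which 6 could be named. A gene of this list, too, could be named only through being listed. The authors' deposited SAM 5% list for Ha-RasV12 MEFs, with 10.7% of transcripts, held 4 higher and 1 lower. The uncoupling protein Ucp1, which dissipates the mitochondrial proton gradient in brown fat, was at 3.37, the phosphate exporter Xpr1 at 0.87, Ucp2 at 0.61 and the organic anion transporter Slco3a1 at 0.58, while its relative Slco4a1 was at -1.91. In p53-/- MEFs that list held Sfxn4 alone (1.83), a protein of the mitochondrial sideroflexin family.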

How the data were processed

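The array held 132488 probes and 5000 random control probes. Intensity values in the deposited value table are the authors' normalized signals per dye channel, and the log2 differences they give equal the authors' deposited log2 fold changes to within 4.8e-06. The authors deposited 6 tables of comparisons: limma tables with p-values, and SAM lists with q-values and a score, which name only probes past a threshold. The authors used limma, per the submitters' processing notes. Its version and the method of normalization were not given in the sources used here. Unlisted probes were named through the transcript accession they share with a listed probe. The authors' limma adjusted p-values imply about 88581 tested probes in p53-/- and 91284 in Ha-RasV12 MEFs, fewer than the 132488. Shares of all transcripts given beside the authors' tables may therefore be too low. These shares count transcripts, whereas a member gene can hold several.

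Values were log2 transformed and the 2 dye orientations averaged. Knockout minus control was taken within the array, so that the replicate is a block. The pairing comes from the labels, which put both on 1 array. As a check, their deviations correlated at 0.63, 0.60 and 0.59 in p53-/- and at 0.32, -0.06 and 0.49 in Ha-RasV12 MEFs for A, B and C. limma 3.58.1 (R 4.3.3) fitted all probes of both backgrounds in 1 model with a shared spread, with Benjamini-Hochberg adjustment and a threshold of 0.05. A gene took its probe with the smallest p in the authors' limma table of that background, otherwise the mean over its probes. The level test used the member's leading listed probe after quantile normalization. A gene read over its probes counts as above background where any probe is, and a fold against a group never above background is a bound, set against the higher of signal and background. In simulated data for Ha-RasV12 knockout minus control on 132488 probes, 14% of probes changed by 1 log2 unit and 87% changed by 2 were called, and 0.00378% of unchanged ones. The simulation gave both backgrounds the same spread per probe. In the data the median SD between replicates over all probes was 0.205 in p53-/- and 0.319 in Ha-RasV12 MEFs. These rates therefore may not hold for the measured Ha-RasV12 values. Figures used Python 3.11.15 and matplotlib 3.10.9.

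The members and lists were chosen with earlier results of these data known. The rule for named genes took, per family and background, the 4 members with the smallest p in the authors' limma table and the 2 largest level differences each way past the threshold, then members in both limma tables or with probes going both ways, 1 member just inside and 1 just outside a limma table, and E4f1. Members outside that rule are named so that each has its values, and were chosen after values were seen. The number of arrays limits the precision. Alternatives were no replicate block, each array as a replicate, quantile normalization or median scaling, brighter probes, means over probes, controls alone, each replicate left out, B and C counted once, each background fitted alone, and the authors' tables. Of per-sample columns 0 went unused. Values of 1 member are not reported here, although counts and medians over the 41 include it.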

Additional observations from a re-analysis of the deposited data

Results flagged for a closer look

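In 3 members every replicate lay on 1 side of 0 in p53-/- MEFs and on the opposite side in Ha-RasV12 MEFs, each on 1 of the 2 measures used, the leading probe or the mean over probes. For Slc31a1, knockout minus control over its probes was -0.23 in p53-/- MEFs (-0.42 to -0.11) and 0.43 in Ha-RasV12 MEFs (0.23 to 0.63), so that the effects differed by 0.66. For Slc29a2 the mean over probes was -0.10 (-0.13 to -0.03) and 0.48 (0.12 to 0.92), a difference of 0.57. For Slc35b3 the leading probe was at 0.16 (0.01 to 0.38) and -0.70 (-0.89 to -0.42), a difference of -0.86, whereas the mean over its probes was below 0 in p53-/- replicates A and C. These differences were not tested, and the share of all probes or genes with such opposite signs was not counted. All 3 replicates had the same sign for 31.3% of probes (32.6% of means) in p53-/- MEFs. In Ha-RasV12 MEFs 29.6% of probes (29.0% of means) did. A few opposite cases can thus arise without any true difference. The 3 members were listed in Ha-RasV12 MEFs, so that their sign there was part of how they were chosen. Slc22a18 and Slc4a10 also had opposite signs, each with a group never above background, and no size is given.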

How the results depend on the processing

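In p53-/- MEFs 0 members passed in the main fit and in every refit, with or without the replicate block and without any replicate (0 to 0), against 1, 1 and 6 members in the authors' limma table and SAM lists at 1% and 5%. In Ha-RasV12 MEFs 9 passed: 0 did with no replicate block, 36 with each array as its own replicate, 3 with means over probes, 0 with B and C counted as 1 sample (chosen after seeing the data, and leaving fewer samples), 0 with each background fitted alone (also chosen after seeing the data), 0 to 2 with a replicate left out, and 16, 18 and 37 in the authors' limma, SAM 1% and SAM 5% tables. Quantile normalization (9) and brighter probes (7) changed little. For levels, 6 passed: 0 did with B and C counted as 1 sample, and 0 to 6 with a replicate left out, while controls alone gave 5, values as deposited 4, median scaling (added after seeing the data) 6, brighter probes 6 and means over probes 9. No member's sign changed under these alternatives among the values compared. Of 345 such values for 37 members in Ha-RasV12 MEFs, 257 stayed on their side of the threshold, 60 lost a call and 28 gained one; for levels 30 of 54 stayed and 24 lost it. Signal near background limits the knockout differences of several members, among them Slc22a18, Slc9a2, Slc9a9 and Slc4a10. It also limits those of Slc16a7, Slc16a13, Slc22a21, Slc25a43, Slc35f1, Slc35f2, Slc38a10 and the leading probe of Slc29a2.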
